A study of Mus musculus with 32 samples.

Results

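The comparison set 4 libraries of tumor cells against 3 libraries of CD8 T cells, all labelled week 4, which is 7 of the 32 libraries of the series. The members were taken by their labels, and the choice was made with earlier results of these data known. All 7 libraries came from mouse tumor tissue. Tumor libraries carry the replicate numbers 1 to 4 and are labelled as breast cancer cells with MMTV-PyMT as the cell line, after the model in which a viral promoter active in mammary epithelium drives the polyoma middle T oncogene. The CD8 T cell libraries carry the numbers 2 to 4. Neither kind has a treatment or a knockdown in its labels. The labels name no clone, host strain, age, pooling of animals or antibody gate, so how the cells were separated, and whether numbers stand for separate animals, is not given in the sources used here. Other libraries used beside them were tumor cells of week 2 (n = 3) and week 3 (n = 4), CD8 T cells of weeks 2 and 3 (n = 3 each), and tumor cells and CD8 T cells from xenografts labelled shCTRL or shMogat1 (n = 3 each).

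Carcinomas of this model arise from luminal mammary epithelium, the keratin 8 and 18 positive layer that makes milk. CD8 T cells recognise peptides on MHC class I through the T cell receptor and its CD3 subunits, and kill with granzymes and perforin. Under lasting antigen they take on inhibitory receptors such as PD-1, whose ligands can sit on tumor cells or on other immune cells. The title of the series names Mogat1, a monoacylglycerol acyltransferase that makes diacylglycerol, the substrate from which DGAT enzymes make triacylglycerol.

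Levels are TPM (transcripts per 1000000), which are scaled for gene length and within each library, so levels can be read across genes. TPM carry no read counts, so the depth behind each value is unknown. The 2 kinds of library were deposited in separate tables, and kind of cell and table cannot be told apart. For that reason week 4 differences are descriptions with no test. A difference is the mean log2(TPM + 1) of the tumor libraries minus that of the CD8 T cell libraries, and its SE covers only the spread between libraries of 1 kind. The added 1 understates differences of low genes. A gene was counted as higher on a side when the difference was at least 3 on this scale and no library of one kind overlapped the other. Values run from replicate 1 to 4 in tumor cells and from 2 to 4 in CD8 T cells.

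Of 14521 genes with at least 1 TPM in 3 or more of the 7 libraries, 1208 (8.32%) were counted as higher in tumor cells and 530 (3.65%) as higher in CD8 T cells. Without the size threshold, 6417 genes (44.2%) were higher in every tumor library than in any CD8 T cell library, and 4246 (29.2%) were lower. The median difference over all tested genes was 0.21, and it was -0.02 after median-of-ratios rescaling and -0.08 after quantile normalization of the 7 libraries. Quantile normalization turned the split of 1208 to 530 into 896 to 627. Differences reached farther on the CD8 T cell side: 29 of its genes lay beyond -7, while the highest tumor-side value was 6.66. Genes counted on the tumor side made up 13.01% to 15.1% of the TPM of tumor libraries and 0.514% to 0.752% in CD8 T cells. Genes on the CD8 T cell side made up 8.05% to 9.14% of the TPM of CD8 T cells and 0.196% to 0.330% in tumor libraries.

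**Figure D1:**
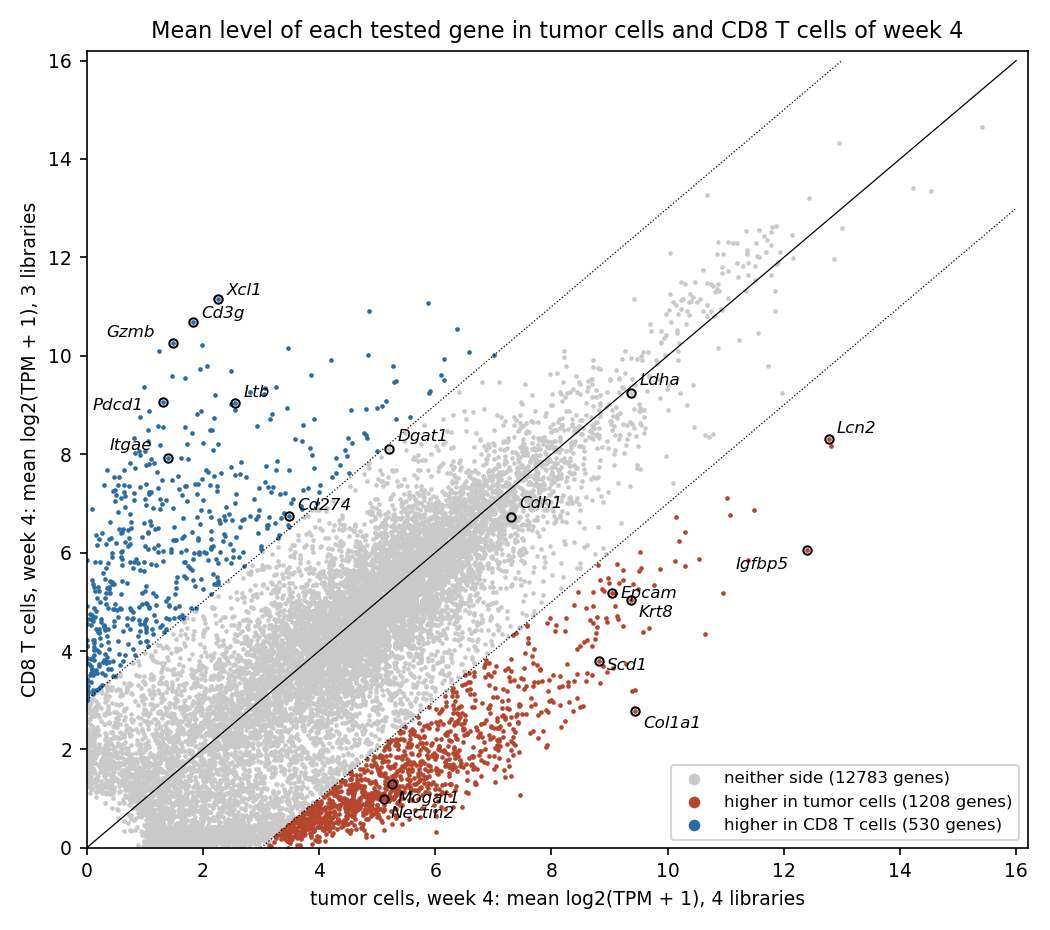
Mean log2(TPM + 1) of each of the 14521 tested genes in tumor cells (x axis, 4 libraries) and CD8 T cells (y axis, 3 libraries) of week 4. Points outside the dotted lines differ by more than 3; 1208 genes (red) were counted as higher in tumor cells and 530 (blue) as higher in CD8 T cells, and Cdh1 and Ldha lie near the diagonal.

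Libraries of 1 kind resembled each other, with Pearson correlations across genes of 0.977 to 0.986 in each kind and 0.636 to 0.717 between kinds. Genes are not independent replicates, so these values only describe the libraries. The mitochondrially encoded genes took 9.81% to 16.1% of the TPM in tumor cells and 5.95% to 7.09% in CD8 T cells. Defining markers followed the labels, with a trace of each kind in the other. Over 10 epithelial markers, the median level in CD8 T cell replicates 2, 3 and 4 was 4.99%, 2.56% and 4.09% of the tumor mean. Over 9 T cell markers, the median level in tumor replicates 1 to 4 was 0.879%, 0.563%, 0.133% and 0.110% of the CD8 T cell mean. Genes on the tumor side as a whole stood at a median of 3.77% of their tumor level in CD8 T cells (quartiles 2.54% and 5.58%), a share that the size threshold itself holds low. Whether such low values are transcripts of the cells named on the label was not tested, and in bulk RNA fewer cells of a type and less RNA per cell cannot be told apart.

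Every tested member of the T cell receptor list, 26 of 26, was counted as higher in CD8 T cells, beside 3.65% of all tested genes. The median difference was -6.33, against 0.21 for all tested genes. Cd3g, a CD3 subunit, read 7.61, 5.002, 0.655 and 0.844 TPM in tumor cells and 1686, 1873 and 1404 TPM in CD8 T cells. The difference was -8.86 (SE 0.61). Cd8a, the CD8 alpha chain, read 2.76, 2.65, 0.245 and 0.883 TPM against 1173, 1128 and 996 TPM, a difference of -8.85 (SE 0.39). In both genes tumor replicates 3 and 4 were lowest, and the tumor levels spread over several fold while the CD8 T cell levels did not. The kinase Lck, which phosphorylates CD3 chains, read 11.9, 8.83, 7.73 and 6.56 TPM in tumor cells and 644, 708 and 634 TPM in CD8 T cells. All 22 pan-leukocyte genes lay on the same side, with a median of -5.28. Ptprc, which encodes CD45, read 19.2, 17.8, 3.13 and 8.33 TPM in tumor cells and 1081, 1142 and 1230 TPM in CD8 T cells.

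Of 22 tested cytotoxic effector genes, 19 were counted as higher in CD8 T cells, and all 22 were higher without overlap. The shares of all tested genes were 3.65% and 29.2%. The 10 largest CD8 T cell differences of the whole table were Xcl1, Cd3g, Cd8a, Gzmb, Cd8b1, Nkg7, Cd7, Il2rb, Klrd1 and Cd3d. Xcl1, a chemokine that attracts cross-presenting dendritic cells, read 6.72, 9.49, 0.382 and 3.78 TPM in tumor cells and 2914, 2364 and 1710 TPM in CD8 T cells, a difference of -8.89 (SE 0.68). Gzmb, the protease granzyme B, read 1.83, 3.92, 1.22 and 0.974 TPM against 1118, 2000 and 832 TPM, a difference of -8.78 (SE 0.47). CD8 T cell replicate 3 was highest for Gzmb and replicate 2 for Xcl1. Nkg7, a granule membrane protein, followed at -8.24 and Klrd1, the CD94 lectin-like receptor, at -7.83. Ifng, which encodes interferon gamma, read 389, 197 and 227 TPM in CD8 T cells and at most 1.46 TPM in tumor cells. Gzma varied most among the CD8 T cell libraries, at 192, 730.3 and 133 TPM, with replicate 3 several fold above the others. The chemokine Ccl4 differed less (-3.18, SE 0.67), and tumor libraries read 14.99, 27.3, 3.796 and 12.2 TPM against 203, 84.2 and 93.2 TPM. It was -2.70 without tumor replicate 3 and -2.78 without CD8 T cell replicate 2.

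Of 26 tested transcription factors of T cells, 16 were counted as higher in CD8 T cells and none in tumor cells, with a median of -3.54. Without the size threshold, 19 were higher in CD8 T cells and 4 in tumor cells, beside 29.2% and 44.2% of all tested genes. Ikzf3, the lymphoid factor Aiolos, read 1.52, 0.705, 0.17000 and 0.179 TPM in tumor cells and 144, 185 and 168 TPM in CD8 T cells. Tbx21, which encodes T-bet and drives effector genes, read 0.6104, 1.24, 0.3002 and 0.135 TPM against 82.4, 104 and 70.3 TPM. Tox, a factor of exhausted T cells, read 0.628, 0.466, 0.169 and 0.1899 TPM against 52.4, 68.7 and 56.3 TPM. The differences of these 3 genes were -6.73, -5.81 and -5.47, and neither kind overlapped the other. Tcf7, which encodes TCF-1 of naive and stem-like T cells, was less even among CD8 T cells, at 133, 436 and 572 TPM, and read 29.9, 29.5, 25.997 and 23.8 TPM in tumor cells. Lef1, its relative, followed the same order of libraries in CD8 T cells (20.9, 75.1 and 160.1 TPM). So did Ccr7 (309.6, 638 and 1047 TPM), a homing receptor of naive and central memory cells, and all 3 were lowest in replicate 2. Klf2 overlapped between the kinds, with 114, 205, 158 and 169 TPM in tumor cells and 105, 356 and 486 TPM in CD8 T cells. Id2 and Id3, inhibitors of E proteins, differed by only -0.62 and 0.86.

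Inhibitory receptors were all higher in CD8 T cells, 13 of 13 without overlap, and 8 passed the size threshold. Of all tested genes 29.2% and 3.65% did so. Pdcd1, which encodes PD-1, read 3.497, 2.83, 0.198 and 0.8501 TPM in tumor cells and 611, 542 and 457 TPM in CD8 T cells, a difference of -7.75 (SE 0.46). Ctla4, a receptor for CD80 and CD86, read 4.39, 4.15, 0.495 and 1.92 TPM against 285, 279 and 315 TPM. Lag3, which binds MHC class II, was lower, at 71.9, 69.7 and 41.9 TPM in CD8 T cells, against 6.81, 5.44, 3.11 and 4.12 TPM in tumor cells. At the other end Vsir, which encodes VISTA, read 23.7, 24.9, 22.8 and 22.5 TPM in tumor cells and 32.5, 53.3 and 49.8 TPM in CD8 T cells (-0.89), and Entpd1, the ectonucleotidase CD39, differed by -2.48.

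**Figure D2:**
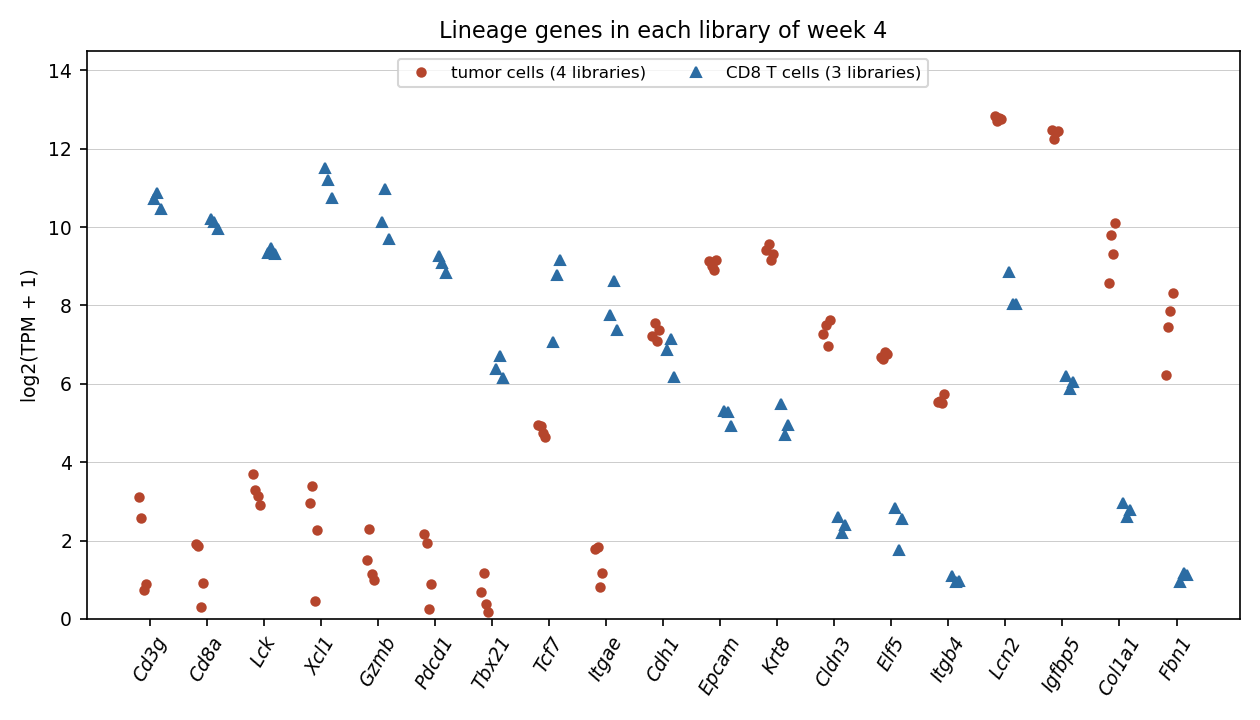
log2(TPM + 1) of 19 lineage genes (x axis) in each library of week 4, with tumor cells as red circles (4 libraries) and CD8 T cells as blue triangles (3 libraries). The T cell genes at left and the epithelial and matrix genes at right separate without overlap, and the libraries overlap only for Cdh1.

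On the tumor side, 26 of 38 tested luminal genes were counted as higher and 35 were higher without overlap, with a median difference of 3.57. Among all tested genes the shares were 8.32% and 44.2%. Epcam, an epithelial adhesion protein, read 561, 513, 475 and 567 TPM in tumor cells and 38.5, 37.9 and 29.5 TPM in CD8 T cells, a difference of 3.87 (SE 0.13). Krt8, a luminal keratin, read 687, 754, 571 and 632 TPM against 43.9, 24.7 and 29.6 TPM (4.33, SE 0.25). CD8 T cell replicate 2 was the highest of its kind for both genes. Cldn3, a tight junction claudin, had the largest difference of the list, 4.93, from 154, 180.2, 123 and 196 TPM in tumor cells and 5.12, 3.598 and 4.31 TPM in CD8 T cells. Tfap2c, Ehf and Elf5, transcription factors of mammary epithelium, differed by 4.89, 4.51 and 4.34. Elf5, which marks the alveolar progenitor branch, read 102, 98.01, 111 and 108 TPM in tumor cells and 6.15, 2.397 and 4.905 TPM in CD8 T cells. The receptor kinase Erbb2 differed by 4.65, with 37.9, 40.4, 39.4 and 37.7 TPM in tumor cells. Kit, the receptor of stem cell factor, lay just inside the size threshold at 3.02, and Cidea, a lipid droplet protein, just outside it at 2.96. Kit fell short without tumor replicate 4 or CD8 T cell replicate 2 or 3 (2.93, 2.99 and 2.89).

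The promoter letters of the genes on both sides were also compared. RUNX and ETS proteins include transcription factors of T cells, and AP-2 proteins include factors of epithelium. The families are not confined to those cells: Ehf and Elf5, counted as higher in tumor cells, are ETS proteins. RefSeq promoter windows of build GRCm38.p6, from 250 bases before to 50 after the start, matched 10597 of the tested genes by symbol, among them 375 genes of the CD8 T cell side and 843 of the tumor side. The RUNX core TGTGGT, on either strand, was in 24.5% of the windows of the CD8 T cell side and 11.0% of the tumor side, against 13.1% of all tested genes and 16.9% of all 27025 genes of the table. The ETS letters AGGAAG, on either strand, were in 53.3% and 33.5%, against 34.0% of all tested genes and 35.1% of the table. No RUNX match overlapped an ETS match in the windows printed here. The AP-2 letters GCCNNNGGC went the other way, with 17.9% and 26.8%, against 24.5% of tested genes and 16.5% of the table. Of 3 other motifs searched on either strand, the TEAD letters GGAATG were in 9.87% and 15.9%, the AP-1 letters TGANTCA in 6.40% and 7.47%, and the Grainyhead letters AACNGGTT in 1.33% and 2.25%, against 12.02%, 5.41% and 1.802% of all tested genes and 14.6%, 7.93% and 2.01% of the table. Base composition differed as well: the median window held 6 CpG sites on the CD8 T cell side, 17 on the tumor side and 20 among all tested genes. Its part in the motif shares was not tested, and a match is a description of letters, not a bound site.

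Of the 10 genes with the largest CD8 T cell differences, 6 had a window and 4 of these held a RUNX or ETS match. Of the 10 with the largest tumor differences, 6 had a window and 2, Dpt and Col6a1, held one. Either match was in 63.5% of the windows of the CD8 T cell side, 41.2% of the tumor side and 42.2% of all tested genes. The 4 windows with a match are printed here with the matches in capitals, beside Epcam and Mogat1, which were chosen for their roles in the text and not for their letters. The windows of Xcl1 at chr1:164935473-164935772 (minus strand), Gzmb at chr14:56262285-56262584 (minus strand), Nkg7 at chr7:43436888-43437187 (plus strand) and Cd3d at chr9:44981536-44981835 (plus strand) run 5′ to 3′ along the gene. Those of Epcam at chr17:87635729-87636028 and Mogat1 at chr1:78510810-78511109 lie on the plus strand.
Xcl1: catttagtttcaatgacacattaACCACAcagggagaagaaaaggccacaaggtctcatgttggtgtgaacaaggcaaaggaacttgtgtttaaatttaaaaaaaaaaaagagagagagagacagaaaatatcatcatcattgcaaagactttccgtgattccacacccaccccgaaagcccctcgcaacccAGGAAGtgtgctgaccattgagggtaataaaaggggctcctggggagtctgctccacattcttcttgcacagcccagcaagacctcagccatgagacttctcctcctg
Gzmb: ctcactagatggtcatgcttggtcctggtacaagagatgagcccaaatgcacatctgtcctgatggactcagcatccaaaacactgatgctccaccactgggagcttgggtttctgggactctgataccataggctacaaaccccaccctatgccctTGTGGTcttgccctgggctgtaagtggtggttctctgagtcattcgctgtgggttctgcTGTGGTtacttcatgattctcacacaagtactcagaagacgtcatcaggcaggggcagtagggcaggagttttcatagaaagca
Nkg7: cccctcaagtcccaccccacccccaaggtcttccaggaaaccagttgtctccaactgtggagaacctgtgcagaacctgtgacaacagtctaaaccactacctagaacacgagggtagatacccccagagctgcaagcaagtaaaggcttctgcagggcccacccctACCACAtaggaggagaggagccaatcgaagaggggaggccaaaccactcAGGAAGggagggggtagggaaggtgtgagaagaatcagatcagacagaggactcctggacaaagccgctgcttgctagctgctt
Cd3d: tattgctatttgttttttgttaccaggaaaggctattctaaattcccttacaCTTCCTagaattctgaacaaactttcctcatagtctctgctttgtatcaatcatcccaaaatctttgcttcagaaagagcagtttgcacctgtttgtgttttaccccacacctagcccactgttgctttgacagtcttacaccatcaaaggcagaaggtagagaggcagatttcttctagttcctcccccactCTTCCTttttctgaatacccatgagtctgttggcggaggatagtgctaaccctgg
Epcam: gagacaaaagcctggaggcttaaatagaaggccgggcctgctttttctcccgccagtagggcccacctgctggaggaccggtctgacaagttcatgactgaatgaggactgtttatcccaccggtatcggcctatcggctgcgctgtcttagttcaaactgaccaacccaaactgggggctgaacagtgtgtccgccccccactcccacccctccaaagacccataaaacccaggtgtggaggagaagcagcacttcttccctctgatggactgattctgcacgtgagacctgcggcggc
Mogat1: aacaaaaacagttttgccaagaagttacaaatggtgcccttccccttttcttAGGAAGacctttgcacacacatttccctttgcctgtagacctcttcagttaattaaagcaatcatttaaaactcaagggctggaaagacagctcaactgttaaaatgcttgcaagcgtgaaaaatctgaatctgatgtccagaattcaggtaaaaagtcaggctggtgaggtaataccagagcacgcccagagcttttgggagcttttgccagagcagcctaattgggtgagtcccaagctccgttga

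Xcl1 and Nkg7 each held 1 RUNX and 1 ETS match, Gzmb held 2 RUNX matches and Cd3d 2 ETS matches. Mogat1 held 1 ETS match and Epcam none. Differences of these genes at week 4 were -8.89 for Xcl1, -8.78 for Gzmb, -8.24 for Nkg7, -7.81 for Cd3d, 3.87 for Epcam and 3.96 for Mogat1. Cd8a and Cd3g had windows with neither core, at differences of -8.85 and -8.86.

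Most basal genes and all tested secretory genes were higher in tumor cells. Of 12 tested basal and myoepithelial genes, 9 were counted as higher in tumor cells, with a median of 3.32. Under quantile normalization 6 were counted. Without the size threshold 11 were higher in tumor cells and 1 was higher in CD8 T cells (-0.56). Itgb4, the hemidesmosome integrin beta chain, read 45.4, 46.2, 44.8 and 52.5 TPM against 1.13, 0.922 and 0.955 TPM (4.59), and the laminin chain Lamb3 differed by 4.55. Of 16 milk and secretory genes, 7 were counted, with a median of 2.73, and all 16 were higher without overlap. Among all tested genes 8.32% were counted and 44.2% were higher without overlap. Lcn2, the iron-carrier binding protein lipocalin 2, read 7369, 6644, 7100 and 6884 TPM in tumor cells and 458, 261 and 259.9 TPM in CD8 T cells, a difference of 4.47. Among milk proteins, Csn3 (kappa casein) spread widely over tumor cells, at 182, 293, 96.3 and 249 TPM, and read 36.98, 13.8 and 19.6 TPM in CD8 T cells. Its difference of 3.07 fell short of the threshold under either rescaling (2.84 and 2.91) and without tumor replicate 2 or 4 or CD8 T cell replicate 3 (2.86, 2.94 and 2.77). Spp1, which encodes osteopontin, read 3548, 4608, 2669 and 5952 TPM against 679.7, 661 and 493 TPM, and its difference of 2.73 stayed under the threshold.

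The 10 largest tumor-side differences were not epithelial genes but matrix and secreted genes: Col1a1, Fbn1, Igfbp5, Col3a1, Col1a2, Fn1, Mmp2, Col6a1, Dpt and Thbs1. Col1a1, the alpha 1 chain of collagen I, read 378, 882, 634 and 1094 TPM in tumor cells and 6.76, 5.07 and 5.93 TPM in CD8 T cells, a difference of 6.66 (SE 0.35). Fbn1, which encodes the microfibril protein fibrillin 1, read 73.7, 174, 229 and 317 TPM against 0.921, 1.26 and 1.16 TPM. In both genes tumor replicate 1 was lowest and replicate 4 highest. Igfbp5, an insulin-like growth factor binding protein, was even over tumor cells, at 5675, 4832, 5479 and 5571 TPM, and read 72.6, 57.7 and 65.6 TPM in CD8 T cells (6.35, SE 0.11). Thbs1, the secreted glycoprotein thrombospondin 1, was as even, with 1994, 1841, 1889 and 2218 TPM in tumor cells. Of 12 fibroblast markers, 11 were counted as higher in tumor cells and 1, Thy1, in CD8 T cells, where it is a surface marker of mouse T cells. The shares of all tested genes were 8.32% and 3.65%. The summed level of the 12 markers was 2351 to 7462 TPM in tumor libraries and 801 to 1238 TPM in CD8 T cells, of which Thy1 made 1157, 1118 and 734 TPM. None of the 12 was at 0 in all libraries of a kind. The part of fibroblast RNA in the tumor libraries was not tested.

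Markers of other cell types were counted less evenly. Of all tested genes 8.32% were counted as higher in tumor cells and 3.65% in CD8 T cells. In lists this short a count of 0 or 1 says little beside these shares. Of 15 macrophage and monocyte genes, 1 was counted on each side, with Ly6c2, which memory CD8 T cells also express, on the CD8 T cell side. The summed level of these genes was 585 to 1762 TPM in tumor cells and 661 to 1200 TPM in CD8 T cells. Lyz2, the lysozyme of macrophages and neutrophils, overlapped between the kinds at 434, 482, 71.7 and 185 TPM and 213, 174 and 131 TPM, and so did Cd68, a lysosomal protein of macrophages (-0.04). Siglech, a marker of plasmacytoid dendritic cells, read 78.8, 1.96 and 31.9 TPM in CD8 T cells, so its level rested on replicates 2 and 4, and its difference of -3.96 was -2.95 without replicate 2. None of the 5 tested B and plasma cell genes was counted on either side. Of 6 natural killer genes 3 were counted as higher in CD8 T cells, among them Gzma, which is also in the cytotoxic list. All 6 were higher there without overlap, beside 29.2% of all tested genes. CD8 T cells can express some of these genes, and the part of natural killer cell RNA was not tested. Of 7 CD4 and regulatory T cell genes 2 were counted as higher in CD8 T cells. Of 9 endothelial genes 2 were counted as higher in tumor cells, and of 6 neutrophil genes 1 was. Under quantile normalization the macrophage, endothelial and neutrophil counts in tumor cells were 0, 1 and 0, and the natural killer, CD4 and regulatory T cell, and B cell counts in CD8 T cells were 5, 3 and 1. Median-of-ratios rescaling also gave 0 for neutrophil and 3 for CD4 and regulatory T cell genes.

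Cdh1 stood apart from most epithelial genes. Cdh1 encodes E-cadherin, the adhesion protein of epithelial junctions, which the integrin chain encoded by Itgae binds as part of CD103 on T cells. Its level was 149, 187, 136 and 164 TPM in tumor cells and 116, 139 and 71.7 TPM in CD8 T cells, so the kinds overlapped and the difference was 0.58 (SE 0.30). In CD8 T cell replicates 2, 3 and 4 this was 72.7%, 87.7% and 45.1% of the tumor mean, against a median of 4.99%, 2.56% and 4.09% over the 10 epithelial markers, which include Cdh1. Itgae read 216, 394 and 165 TPM in CD8 T cells and 2.42, 2.59, 0.7597 and 1.23 TPM in tumor cells, a difference of -6.52 (SE 0.44). Within CD8 T cells, replicate 3 was highest and replicate 4 lowest for both Cdh1 and Itgae. In CD8 T cells Cdh1 read 18.4, 25.5 and 26.0 TPM at week 2 and 88.0, 66.5 and 43.0 TPM at week 3. In the xenograft set Cdh1 was higher in CD8 T cells than in tumor cells: 49.5, 51.2 and 47.8 TPM against 2.01, 1.56 and 1.41 TPM under the shCTRL label. Epcam in those CD8 T cells was 4.24, 2.82 and 4.57 TPM. Under the shMogat1 label Cdh1 read 43.1, 42.6 and 45.6 TPM in CD8 T cells and 15.2, 15.2 and 14.53 TPM in tumor cells, while Epcam was level, at 28.3, 29.7 and 30.3 TPM and 28.4, 29.6 and 30.8 TPM.

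Among the metabolic lists, fatty acid synthesis held the most genes counted on 1 side. Of 24 fatty acid synthesis genes, 10 were counted as higher in tumor cells and none in CD8 T cells, with a median of 1.68. Over all tested genes the median was 0.21, and 8.32% were counted in tumor cells and 3.65% in CD8 T cells. Scd1, the stearoyl-CoA desaturase that makes oleate, read 432, 455, 411 and 509 TPM in tumor cells and 17.9, 6.65 and 17.3 TPM in CD8 T cells, a difference of 5.03 (SE 0.43). Fads2, the delta-6 desaturase, read 231, 212, 220.0 and 208 TPM against 19.2, 5.89 and 7.06 TPM (4.40). Srebf1, the transcription factor that drives these enzymes, read 651, 527, 649.5 and 594 TPM against 38.8, 53.4 and 37.1 TPM (3.79). Thrsp and Me1, a lipogenic regulator and the NADPH-making malic enzyme, differed by 4.31 and 4.22. Fasn, the synthase itself, read 252, 236, 193 and 222 TPM in tumor cells and 22.2, 44.7 and 30.2 TPM in CD8 T cells, and its difference of 2.81 stayed under the threshold. Acly, which makes the acetyl-CoA that the pathway uses, was level at 131, 142, 122 and 124 TPM and 107, 137 and 97.6 TPM and overlapped.

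Of 14 tested genes of triacylglycerol synthesis, 8 were higher in tumor cells and 4 in CD8 T cells without overlap, near the shares of all tested genes (44.2% and 29.2%). Mogat1 was the only gene of 14 tested that was counted. That count is near the share of all tested genes counted in tumor cells, 8.32%. Mogat1 read 39.6, 36.9, 35.8 and 36.01 TPM in tumor cells and 2.997, 0.611 and 1.28 TPM in CD8 T cells, a difference of 3.96 (SE 0.38). CD8 T cell replicate 2 was the highest of its kind for Mogat1, as for Krt8, and the CD8 T cell mean was 4.39% of the tumor mean, beside the medians of 2.56% to 4.99% for the epithelial markers. Dgat1, which adds the last acyl chain, went the other way at 36.97, 37.4, 30.5 and 38.8 TPM in tumor cells and 223, 335 and 272 TPM in CD8 T cells. Its difference of -2.90 (SE 0.19) was just under the threshold, and it was -3.13 on median-of-ratios rescaling. Agpat3, an acyltransferase that makes phosphatidic acid, read 5.61, 5.97, 5.86 and 7.95 TPM against 31.2, 36.3 and 34.5 TPM (-2.26). Dgat2, the other DGAT enzyme, was low in both kinds, with means of 3.81 and 1.14 TPM.

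Of 11 lipid droplet genes, 7 were higher in tumor cells and 3 in CD8 T cells without overlap, beside the same 44.2% and 29.2% of all tested genes. G0s2, an inhibitor of the lipase ATGL, read 57.7, 69.5, 69.8 and 58.3 TPM in tumor cells and 9.02, 2.49 and 4.84 TPM in CD8 T cells and was the 1 of 11 that was counted. The coat proteins Plin2 and Plin3 differed by 2.19 and 2.52, without overlap. Hilpda, another ATGL inhibitor, was higher in CD8 T cells, at 212, 219 and 185 TPM against 52.7, 58.6, 40.7 and 60.7 TPM in tumor cells. Pnpla2, which encodes ATGL, overlapped and differed by -0.04. Among 24 fatty acid uptake and oxidation genes, 4 were counted as higher in tumor cells, and this was 1 under either rescaling. The share of all tested genes was 8.32%. Lpl, the lipoprotein lipase that frees fatty acids outside cells, read 37.4, 80.3, 72.4 and 101 TPM against 2.93, 3.07 and 1.898 TPM. Tumor replicate 1 was lowest for Lpl, as for the collagens. The oxidation enzymes Acadm and Acadvl were level, with differences of 0.03 and 0.13.

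In central carbon metabolism few genes passed the size threshold, which only 8.32% (tumor cells) and 3.65% (CD8 T cells) of all tested genes passed. Of 26 glycolysis genes 1 was counted, Aldoc, the aldolase C isoform, with 339, 307, 275 and 281 TPM in tumor cells and 23.7, 21.3 and 16.1 TPM in CD8 T cells (3.83). The glucose transporter Slc2a3 was higher in CD8 T cells, at 20.8, 25.7 and 26.8 TPM against 2.51, 2.41, 3.93 and 3.67 TPM. Ldhb, the lactate dehydrogenase chain of oxidative tissues, read 72.6, 66.8, 73.9 and 73.6 TPM in tumor cells and 19.3, 3.75 and 14.2 TPM in CD8 T cells, where replicate 3 was lowest. Ldha and Gapdh were level and overlapped, with differences of 0.14 and 0.13. No cholesterol synthesis gene of 24 and no amino acid gene of 27 was counted. Of 21 pentose phosphate and redox genes 5 were counted as higher in tumor cells, among them Sod3, the extracellular superoxide dismutase (5.26), and Nqo1, a quinone reductase (3.64).

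Beside 8.32% and 3.65% of all tested genes, none of the 37 respiratory chain genes was counted. Their median was 0.22, or -0.02 on median-of-ratios rescaling, so no direction can be given for the list. Cox4i1, a nuclear-encoded subunit of cytochrome oxidase, had means of 690.1 and 681 TPM. COX1, its mitochondrial subunit, read 37381, 40292, 63466 and 38494 TPM in tumor cells and 26226, 27457 and 23767 TPM in CD8 T cells, and tumor replicate 3 stood above the rest. Cell cycle genes had a median of 0.00 over 27 genes (-0.23 and -0.09 under the rescalings), but single genes went both ways. Without overlap, 7 were higher in tumor cells and 8 in CD8 T cells, beside 44.2% and 29.2% of all tested genes. The D cyclins Ccnd1 and Ccnd2 lay at the ends of the list. Ccnd1 read 101, 129, 93.3 and 92.7 TPM in tumor cells and 8.86, 2.33 and 4.13 TPM in CD8 T cells, while Ccnd2 read 20.2, 17.2, 12.3 and 19.7 TPM and 85.8, 118 and 89.1 TPM.

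**Figure D3:**
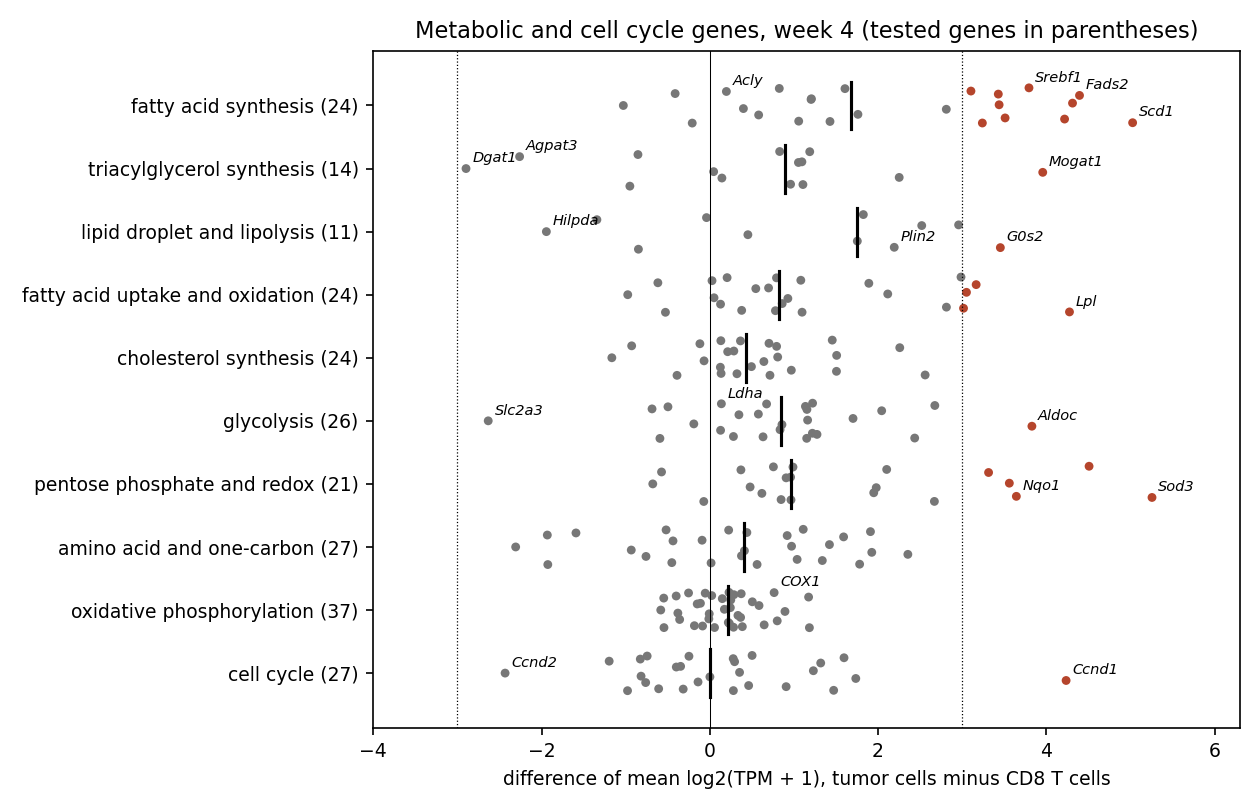
Difference of mean log2(TPM + 1), tumor cells minus CD8 T cells (x axis), for each tested gene of 10 lists (y axis, points spread vertically for sight only), with the list median as a bar. Dotted lines mark 3 and -3; red points were counted as higher in tumor cells, and Scd1 at 5.03 and Dgat1 at -2.90 mark the ends of the lipid lists.

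Ligands and receptors were read as 143 pairs in 5 families, built from 121 ligands and 105 receptors. The percentages of all tested genes counted on each side were 8.32% and 3.65%. Of the receptors, 40 were counted as higher in CD8 T cells and 13 in tumor cells, while 24 ligands were counted on each side. The pair list was weighted toward receptors of T cells, so these counts describe the list. In 6 pairs the ligand was higher in tumor cells and the receptor in CD8 T cells, and in 1 pair the reverse held. The first count was 5 after quantile normalization, where the difference of Vcam1 was 2.94. The reverse count was 2 without CD8 T cell replicate 2 or 3, and 3 under either rescaling. Both partners were higher in CD8 T cells in 10 pairs and in tumor cells in 5. In 42 pairs the receptor alone was higher in CD8 T cells, 13 of them in the checkpoint and costimulation family, 10 in the adhesion and natural killer receptor family, 10 among cytokines and 9 among chemokines. Of the growth factor pairs none had a partner counted as higher in CD8 T cells, and 4 had both partners higher in tumor cells.

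Nectins and their receptors gave 3 of the 6 pairs. Nectin2, which binds the inhibitory receptor TIGIT and the activating receptor CD226, read 34.3, 31.6, 33.4 and 36.5 TPM in tumor cells and 1.16, 0.7105 and 1.09 TPM in CD8 T cells (4.14). Tigit read 2.31, 2.85, 1.21 and 0.182 TPM against 287, 326 and 258 TPM (-6.92), and Cd226 0.566, 0.445, 0 and 0.323 TPM against 87.1, 122 and 88.7 TPM (-6.23). Levels of the inhibitory partner were thus above those of the activating partner in each of the 3 CD8 T cell libraries. Nectin1, a ligand of CD96, read 17.1, 17.3, 15.2 and 19.7 TPM in tumor cells and 0.563, 0.249 and 0.585 TPM in CD8 T cells, and Cd96 differed by -7.51.

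The remaining 3 pairs were of chemokines and adhesion. Ccl2, a chemokine that attracts monocytes, read 473, 433, 437 and 542 TPM in tumor cells and 55.4, 34.3 and 27.1 TPM in CD8 T cells, and Ccl7 read 273, 240.3, 309 and 415 TPM against 31.5, 22.2 and 21.2 TPM. Their receptor Ccr2 read 5.74, 6.67, 1.93 and 2.52 TPM in tumor cells and 86.7, 48.7 and 37.3 TPM in CD8 T cells, where replicate 2 was highest. Vcam1 read 113, 97.6, 92.4 and 84.6 TPM against 12.3, 8.91 and 7.397 TPM, and Itga4, a chain of its receptor VLA-4, 1.73, 1.55, 1.04 and 0.887 TPM against 41.1, 54.6 and 65.8 TPM. The single reverse pair was Ltb, the lymphotoxin beta chain, with 562, 608 and 424 TPM in CD8 T cells and 8.69, 4.83, 3.59 and 3.55 TPM in tumor cells, and its receptor Ltbr, with 69.8, 74.3, 64.5 and 62.9 TPM in tumor cells and 4.06, 3.61 and 3.18 TPM in CD8 T cells.

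The genes of PD-1 and its ligands were all higher in the CD8 T cell libraries. Cd274, which encodes PD-L1, read 13.3, 19.5, 7.13 and 5.72 TPM in tumor cells and 105, 100.4 and 113 TPM in CD8 T cells, a difference of -3.25 (SE 0.37), and no library of one kind overlapped the other. Pdcd1lg2, which encodes PD-L2, read 1.24, 0.956, 0.589 and 0.152 TPM against 21.1, 24.4 and 17.6 TPM. The CD8 T cell libraries also held macrophage and monocyte genes, at a summed 661 to 1200 TPM against 585 to 1762 TPM in tumor libraries. Which cells carried the ligand transcripts was not tested. Other pairs with both partners in CD8 T cells included Ifng with Ifngr1 (938, 1116 and 1192 TPM in CD8 T cells, 103, 89.4, 88.1 and 98.5 TPM in tumor cells). They also included Lta with Tnfrsf1b, a TNF receptor, at differences of -5.58 and -4.56, and the chemokine Ccl1 with its receptor Ccr8, at -5.90 and -5.85. In tumor cells, Kitl lay with Kit (3.82 and 3.02) and Hbegf with the epidermal growth factor receptor Egfr (3.22 and 4.35). Both pairs lost that place under rescaling: Kit was 2.79 and 2.75 after median-of-ratios rescaling and quantile normalization, and Hbegf 2.88 after the latter.

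Several chemokines of tumor cells had receptors that were not counted in CD8 T cells. These genes were named after their values were seen. Cx3cl1, the membrane-bound chemokine fractalkine, read 493, 448, 536 and 417 TPM in tumor cells and 13.8, 9.36 and 13.2 TPM in CD8 T cells, while its receptor Cx3cr1 read 8.07, 12.95, 2.32 and 4.97 TPM and 18.2, 19.1 and 11.01 TPM and overlapped. Ccl20 and Cxcl1 differed by 4.03 and 3.92, and their receptors Ccr6 and Cxcr2 did not reach the filter on low values. In the other direction, Cxcr6, a receptor of tissue-resident T cells, was high in CD8 T cells (371, 329.8 and 240.2 TPM), while its ligand Cxcl16 differed by only 1.97, with 39.4, 39.8, 18.1 and 29.6 TPM in tumor cells. Tnf, a cytokine of both kinds of cell, read 464, 349, 323 and 387 TPM in tumor cells and 78.5, 55.5 and 73.5 TPM in CD8 T cells.

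**Figure D4:**
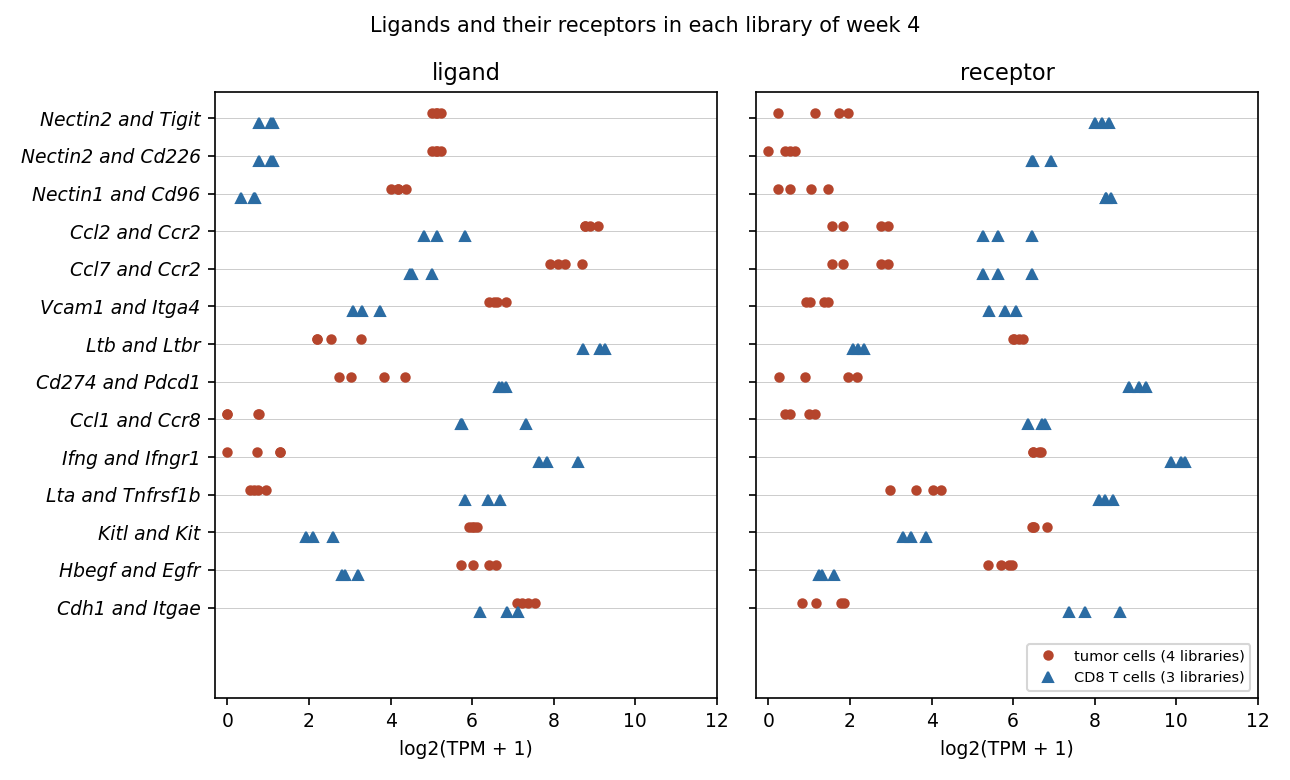
log2(TPM + 1) of ligands (left) and receptors (right) of 14 pairs in each library of week 4, with tumor cells as red circles (4 libraries) and CD8 T cells as blue triangles (3 libraries). In the first 6 pairs the ligand is higher in tumor cells and the receptor in CD8 T cells, in Ltb and Ltbr the reverse, and in the last pair the ligand Cdh1 overlaps while Itgae does not.

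Whether the difference itself changed between week 2 and week 4 can be tested, because a scale that is constant within a table cancels. The limma fit took all 20 time-course libraries and tested, gene by gene, the change of the difference between kinds. Of 15831 tested genes, 3414 (21.6%) moved toward tumor cells and 2582 (16.3%) toward CD8 T cells at a Benjamini-Hochberg adjusted p under 0.05. No label says that libraries came from separate animals, so p-values measure only the spread between these libraries. The largest moves toward CD8 T cells included genes that were lower in tumor cells of week 4 than of week 2. S100a4, a calcium-binding protein, went in tumor cells from 1228 ± 577 TPM (SD, n = 3) to 31.3 ± 4.67 TPM (SD, n = 4) while CD8 T cells read 178 ± 90.7 TPM (SD, n = 3) and 513 ± 176 TPM (SD, n = 3). The difference changed by -6.72 (SE 0.48, limma adjusted p = 4.81e-07). Il1rl1, the receptor of interleukin 33, changed by -6.45, with tumor means of 344 ± 166 TPM (SD, n = 3) and 1.73 ± 1.04 TPM (SD, n = 4). Dynap, Prl2c2, Gm156, Nrn1 and Tnfsf10 changed by -6.07, -5.46, -5.43, -5.14 and -4.79.

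Effector and inhibitory genes moved toward CD8 T cells more often than the 16.3% of all genes. Of 23 tested cytotoxic genes, 18 moved toward CD8 T cells and none toward tumor cells, with a median change of -2.87 against 0.08 for all tested genes. Of 13 inhibitory receptors, 9 moved toward CD8 T cells and 1 toward tumor cells (median -3.07). Gzmb went from 161 ± 121 TPM (SD, n = 3) to 1316 ± 609 TPM (SD, n = 3) in CD8 T cells and from 6.39 ± 4.07 TPM (SD, n = 3) to 1.99 ± 1.34 TPM (SD, n = 4) in tumor cells. The difference changed by -4.38 (SE 0.72, limma adjusted p = 2.35e-04). Pdcd1 changed by -4.43 (SE 0.70, limma adjusted p = 1.75e-04), of which the CD8 T cell part was 2.29 and the tumor part -2.14. Xcl1, Tnfrsf9, a costimulatory receptor also called 4-1BB, and Ifng changed by -5.27, -4.35 and -4.08. T cell lineage genes moved too, by -3.51 for Cd3g and -3.10 for Cd8a, and for these the larger part was in the tumor libraries (-2.94 and -2.51). Cd3g in tumor cells read 52.7, 11.9 and 28.04 TPM at week 2 and 7.61, 5.002, 0.655 and 0.844 TPM at week 4. Lyz2 in tumor cells read 1307, 325 and 1010 TPM at week 2 and 434, 482, 71.7 and 185 TPM at week 4. Of the 15 macrophage genes 1 moved toward CD8 T cells and none toward tumor cells, beside 16.3% and 21.6% of all tested genes. Their median change was -1.78, against 0.08 for all tested genes, so the count does not show that they were unchanged. The part of leukocyte RNA in the tumor libraries in these changes was not tested. Tcf7 moved toward tumor cells by 1.95 (SE 0.68, limma adjusted p = 0.0308). That call was lost without CD8 T cell replicate 2 of week 4 (1.32, adjusted p = 0.0955) and under 6 other alternatives.

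Cd274 was near level at week 2 and higher in CD8 T cells at week 4. At week 2 its means were 52.8 ± 5.297 TPM (SD, n = 3) in tumor cells and 64.9 ± 3.702 TPM (SD, n = 3) in CD8 T cells, and at week 4 11.4 ± 6.301 TPM (SD, n = 4) and 106 ± 6.55 TPM (SD, n = 3). The difference changed by -2.95 (SE 0.38, limma adjusted p = 3.46e-05). Cxcl10, an interferon-induced chemokine, went in tumor cells from 724 ± 172 TPM (SD, n = 3) to 85.5 ± 28.7 TPM (SD, n = 4), and its difference changed by -2.73 (limma adjusted p = 3.33e-04). Vcam1 changed by -1.93, with tumor means of 469.8 ± 96.2 TPM (SD, n = 3) and 96.9 ± 11.96 TPM (SD, n = 4). Itgae and Cdh1 both moved toward CD8 T cells, by -2.32 and -1.18 (limma adjusted p = 0.00339 and 0.0151), and the Cdh1 call was lost with a term for replicate number (-1.15, adjusted p = 0.0649). Of 27 cell cycle genes, 14 moved toward CD8 T cells and none toward tumor cells, against 16.3% and 21.6% of all tested genes. Mki67, the proliferation antigen Ki-67, read 23.7 ± 2.94 TPM (SD, n = 3) and 101 ± 45.4 TPM (SD, n = 3) in CD8 T cells and changed by -1.79, and Top2a, a topoisomerase of dividing cells, by -1.92.

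Of 24 fatty acid synthesis genes, 10 moved toward tumor cells, against 21.6% of all genes, 1 moved toward CD8 T cells and 13 did not pass. Srebf1 went from 124 ± 43.7 TPM (SD, n = 3) to 605 ± 58.8 TPM (SD, n = 4) in tumor cells and read 40.8 ± 9.04 TPM (SD, n = 3) and 43.1 ± 8.93 TPM (SD, n = 3) in CD8 T cells. The difference changed by 2.25 (SE 0.38, limma adjusted p = 2.90e-04). Fasn and Scd2, a desaturase paralog of Scd1, changed by 2.17 and 1.72. Scd1 gave 1.73 and did not pass (limma adjusted p = 0.0582), with tumor means of 87.4 ± 21.1 TPM (SD, n = 3) and 452 ± 42.2 TPM (SD, n = 4). Mogat1 read 1.94, 1.02 and 3.87 TPM in tumor cells at week 2, 4.46, 7.73, 5.71 and 9.37 TPM at week 3, and 39.6, 36.9, 35.8 and 36.01 TPM at week 4. Its difference changed by 2.74 (SE 0.43, limma adjusted p = 1.66e-04). Dgat1 and Hilpda moved toward CD8 T cells, by -1.02 and -2.24.

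The 8 largest moves toward tumor cells among genes with at least 20 TPM in a group began with Cacng4, an auxiliary calcium channel subunit, and Gfap, an intermediate filament protein of glia. They changed by 3.54 and 3.41. Gfap had tumor means of 0.439 ± 0.0244 TPM (SD, n = 3) and 21.9 ± 9.67 TPM (SD, n = 4). Tnxb, Svep1 and Col4a2, matrix genes, changed by 3.28, 3.01 and 2.99. The first of these varied between tumor libraries, at 27.8, 57.1, 72.9 and 143 TPM at week 4, and its call was lost without CD8 T cell replicate 2 or tumor replicate 3 of week 2 (2.49 and 2.67, adjusted p = 0.0755 and 0.0665). Svep1 lost its call without the same libraries, without tumor replicate 2 of week 2 or tumor replicate 4 of week 4, and without a filter on low values (adjusted p of 0.0504 to 0.0784). Vipr1, Tpcn1 and Rgs11 changed by 3.14, 2.97 and 2.91. None of the 12 fibroblast markers passed the test in either direction, against 21.6% and 16.3% of all tested genes. The median change of the 12 was 0.79, against 0.08 for all tested genes. Col1a1 read 688, 181 and 67.9 TPM in tumor cells of week 2, so the count does not show that the markers were unchanged.

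**Figure D5:**
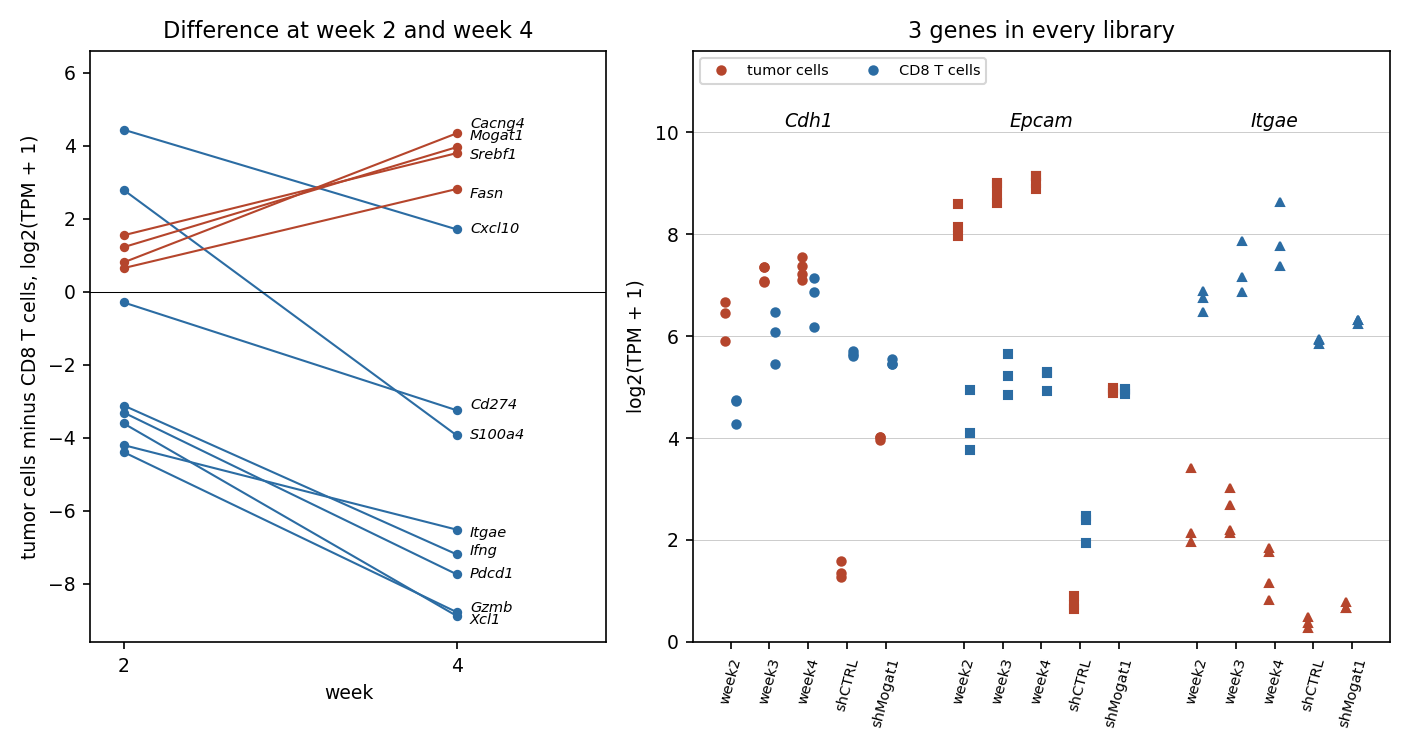
Left, difference of mean log2(TPM + 1) between tumor cells and CD8 T cells at weeks 2 and 4 for 12 genes whose change passed the limma test, in red where it moved toward tumor cells and in blue where it moved toward CD8 T cells. Right, log2(TPM + 1) of Cdh1, Epcam and Itgae in every library by group (weeks 2 to 4 and the 2 hairpin labels), where Cdh1 in CD8 T cells of week 4 (71.7 to 139 TPM) reaches the tumor libraries while Epcam (29.5 to 38.5 TPM) does not.

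The same rule was applied to the other sets. Of the 530 genes on the CD8 T cell side, 327 (61.7%) met the same rule at week 2, 386 (72.8%) at week 3, 393 (74.2%) in the shCTRL set and 382 (72.1%) in the shMogat1 set. Of all tested genes 2.88%, 3.14%, 4.54% and 3.82% were counted on that side in these sets. Of the 1208 genes on the tumor side, 762 (63.1%) met it at week 2 and 775 (64.2%) at week 3, but 0 in the shCTRL set and 93 in the shMogat1 set. The percentages of all tested genes counted on the tumor side in those 4 sets were 7.51%, 6.27%, 0.00724% and 1.33%. The weeks share no library with week 4, while the tables are the same. Epcam read 0.653, 0.560 and 0.864 TPM in the libraries labelled tumor cells shCTRL, so the epithelial marker of week 4 was at a trace there. Col1a1 in the xenograft set was higher in CD8 T cells (196, 176 and 191 TPM under shCTRL) than in tumor cells (73.0, 70.6 and 75.1 TPM). Lyz2 in those CD8 T cells was 1115, 1099 and 1088 TPM. What set the hairpin libraries apart was not tested.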

How the data were processed

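mRNA was extracted with TRIZOL and sequenced from a stranded library kit, per the labels' protocols. Reads were checked with FastQC, trimmed with Trim Galore and aligned with HISAT2 to mm10, per the submitters' processing notes. The read counter, annotation and tool versions are not given in the sources used here. The deposited values are TPM, scaled by the authors to 1000000 per library over 33681 gene symbols in each table, and 27 symbols turned into dates (at most 0.184% of the TPM of a library) were left out. The tumor and CD8 T cell tables of weeks 2 to 4, and those of the hairpin sets, were joined by symbol. Of 531 listed symbols, 4 were not matched.

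Genes with at least 1 TPM in 3 of the 7 libraries were described on log2(TPM + 1). The change of the difference from week 2 to week 4 was tested with limma 3.58.1 in R 4.3.3 (interaction term, 20 time-course libraries, trended variance, Benjamini-Hochberg adjustment, threshold 0.05). This script was tested on simulated data. Python 3.11.15, numpy 2.4.6, pandas 2.3.3 and matplotlib 3.10.9 did the rest. Alternatives were another pseudocount (0.1), rescaling, thresholds, filters, array weights, a term for replicate number, weeks 2 and 4 alone and leaving out each library. Named genes were list members with the largest and smallest differences, the 10 largest of the table per side, members of pairs split between the sides or together on 1 side, the 8 largest changes per direction, list or pair members past the threshold with a change of at least 1.5, and Mogat1. Genes named outside this rule, after their values were seen, were Ccl20, Cx3cl1, Cx3cr1, Cxcl1, Cxcl16, Dgat2, Elf5, Epcam, Krt8, Lck and Tnf. The members and lists were chosen with earlier results of these data known. Some genes are not reported here.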

Additional observations from a re-analysis of the deposited data

Results flagged for a closer look

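In 4 of 121 genes checked, 1 tumor library of week 4 stood far from the other 3, with a gap above Dixon's 95% critical value (chance does this in about 1 of 20 groups). Replicate 3 was lowest for Lef1, at 2.32 TPM (4.74, 4.64, 2.32 and 4.42 TPM in replicates 1 to 4). Replicate 4 was highest for Kit, at 113.5 TPM (90.2, 86.8, 88.6 and 114 TPM). Replicate 1 was lowest for Col6a1, a collagen VI chain, at 149 TPM (149, 265, 282 and 287 TPM). Replicate 3 was highest for COX1, at 63466 TPM.

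The difference between tumor cells and CD8 T cells changed from week 2 to week 4 in 36 of 37 named genes by the limma interaction test. Most of these genes were named because they had passed this test, so the count follows from the choice. Of all tested genes 21.6% moved toward tumor cells and 16.3% toward CD8 T cells. Immune and adhesion genes that moved toward CD8 T cells, with the change on the log2 scale, were Il1rl1 (-6.45), Xcl1 (-5.27), Tnfsf10 (-4.79), Pdcd1 (-4.43), Gzmb (-4.38), Tnfrsf9 (-4.35), Ifng (-4.08), Cd3g (-3.51), Cd8a (-3.10), Cd274 (-2.95), Cxcl10 (-2.73), Itgae (-2.32), Vcam1 (-1.93) and Cdh1 (-1.18). Other genes that moved toward CD8 T cells were S100a4 (-6.72), Dynap (-6.07), Prl2c2 (-5.46), Gm156 (-5.43), Nrn1 (-5.14), Hilpda (-2.24), Top2a (-1.92), Mki67 (-1.79) and Dgat1 (-1.02). Genes that moved toward tumor cells were Cacng4 (3.54), Gfap (3.41), Tnxb (3.28), Vipr1 (3.14), Svep1 (3.01), Col4a2 (2.99), Tpcn1 (2.97), Rgs11 (2.91), Mogat1 (2.74), Srebf1 (2.25), Fasn (2.17), Tcf7 (1.95) and Scd2 (1.72).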

How the results depend on the processing

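With a pseudocount of 0.1, 2352 genes were counted as higher in tumor cells, 899 in CD8 T cells, and 2 pairs had the ligand higher in CD8 T cells and the receptor in tumor cells. This pair count was 3 after median-of-ratios rescaling and 3 after quantile normalization, which kept 1053 and 896 of the 1208 tumor-side genes and 530 and 529 of the 530 CD8 T cell genes. At a difference of at least 2 the counts were 2235 and 963 genes and 12 and 4 pairs, and at 5 they were 91 and 176 genes and 0 and 0 pairs. Array weights gave 5344 genes that moved toward tumor cells, and the cause was not tested. Leaving out 1 library at a time gave 1172 to 1257 genes on the tumor side, 520 to 557 on the CD8 T cell side, 6 to 7 and 1 to 2 pairs, 2641 to 4207 genes that moved toward tumor cells and 2186 to 2671 toward CD8 T cells.

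Deviations of samples with the same replicate number had r of -0.123 to 0.322, with 7 of 9 positive and 3 of 9 over 0.1, against 11 and 2 of 24 for other numbers. At week 4 the same-number r was 0.105, 0.0664 and 0.0870 for replicates 2, 3 and 4, each the highest for its tumor library. At week 2 it was -0.0677, -0.123 and 0.322 for replicates 1, 2 and 3. Since not every pair was over 0.1, the numbers were not taken as pairing in the main results. Whether they mark shared animals was not settled by this. With a replicate block 1243 and 531 genes and 6 and 1 pairs were counted, 2963 and 2419 genes moved toward tumor cells and CD8 T cells, and Cdh1 gave -1.15 (limma adjusted p = 0.0649). Of 740 repeats of the named changes 722 kept their side of the threshold, 15 lost it and 3 gained it, and none turned direction. The 15 were of Tcf7, Tnxb, Svep1 and Cdh1. The 3 gains were of Scd1, at 1.82 with quantile normalization, 2.402 with array weights and 2.54 without CD8 T cell replicate 1 of week 2. Of 1452 repeats of the named levels 1362 moved by less than the spread between libraries, but most could not move farther. Leaving out 1 library, the replicate block and dropping the filter on low values cannot shift a level by that spread, so they are no check here. Of the 121 named levels, 39 moved by at least that spread with a pseudocount of 0.1. With median-of-ratios rescaling 26 did, and with quantile normalization 25. Differences that passed 3 in size only under an alternative were those of Cidea (5.14 with a pseudocount of 0.1, 3.04 without tumor replicate 2, 3.10 without CD8 T cell replicate 2), Dgat1 (-3.13 with median-of-ratios rescaling, -3.04 without CD8 T cell replicate 2), Ldhb (3.09 without CD8 T cell replicate 2) and Fasn (3.07 without CD8 T cell replicate 3). Depth is unknown, so low values carry an unknown counting error.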
